A study of Rattus norvegicus with 63 samples.

Results

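The lateral hypothalamus of rats that never had access to cocaine was set against 5 other brain regions of such rats. All 21 no access arrays of the 63 in the series were used for this, chosen by their titles. There were 4 arrays of the lateral hypothalamus, 4 each of the nucleus accumbens and the amygdala, and 3 each of the septum, the ventral tegmental area and the medial prefrontal cortex. The other 42 arrays came from rats that took cocaine by intravenous self-administration at 0.25 mg per injection, for 1 h (short access) or 6 h (long access) a day. The lateral hypothalamus had 8 of these, 4 for each access. The design text gives 8 rats for each access group, and no strain, sex or age. The labels do not say how rats relate to arrays, so the p-values measure the spread between these arrays, which may be technical.

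The hypothalamus joins the control of feeding, arousal, reward and hormone release. Its lateral part holds orexin and melanin-concentrating hormone neurons among fibre tracts of the medial forebrain bundle. Oxytocin and vasopressin are made above all by magnocellular neurons of the paraventricular and supraoptic nuclei, which send them to the posterior pituitary, and galanin is made by several groups of hypothalamic neurons. In these bulk tissues fewer cells of a type and less RNA per cell cannot be told apart.

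The label was checked against marker genes. The summed signal of oxytocin, vasopressin and galanin was 18300 to 19000 on the 4 lateral hypothalamus arrays without access, against 212 to 4260 on the 17 arrays of the other regions. Orexin (Hcrt), melanin-concentrating hormone (Pmch) and CART peptide (Cartpt) were not analysed here, so the label was checked by 3 of its 6 listed markers, and Oxt and Avp mark the neighbouring hypothalamic nuclei more than the lateral area itself. Dopamine neuron markers (Th, Ddc, Slc6a3 and Slc18a2) summed to 1300 to 1500, against 19700 to 21700 in the ventral tegmental area. Genes listed as markers of cortical and amygdalar excitatory neurons (Nrgn, Cck, Itpka and Camk2a) summed to 1090 to 1240, against 3850 to 20700 in the other regions. Itpka was at the floor on all 4 arrays. Not all of these genes were particular to the cortex and amygdala, as given below.

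The 4 no access arrays stood apart from the 8 cocaine arrays of the same region in their controls. The mean log2 signal of 6 antisense control probe sets was 7.84 to 8.33, against 6.55 to 7.09 on the cocaine arrays. The 9 spike-in controls lay at 11.94 to 12.18 on the no access arrays, against 11.23 to 11.85 on the cocaine arrays. The 17 no access arrays of the other regions were also lower in these controls. Their antisense controls lay at 5.99 to 7.98 (median 6.67) and their spike-in controls at 10.47 to 11.86 (median 11.04). Over 878 probe sets, the no access arrays correlated most with the mean of the ventral tegmental area (0.906 to 0.912), against 0.871 to 0.89 with that of the septum. The cocaine arrays correlated with the ventral tegmental area at 0.879 to 0.896 and most with the septum, at 0.894 to 0.913. All these correlations are across probe sets of the same array design. On 1 of the 3 medial prefrontal cortex arrays the log2 ratio of the 3' to the 5' actin probe sets was 1.93, the highest of the 21 arrays. What part these measures have in the differences was not tested.

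The upstream windows of the 3 marker genes are shown because these genes gave the largest differences of the region. The sequences are the 250 bases before each gene's start, 5' to 3' on the gene's strand, from RefSeq (GRCr8). Oxt lies on chromosome 3 at chr3:138235754-138236594 (+) and its window at chr3:138235504-138235753. Avp lies at chr3:138246544-138248522 (-) with its window at chr3:138248523-138248772, so the pair point towards each other with 9949 bases between their ends. Gal lies at chr1:210079709-210084572 (-) with its window at chr1:210084573-210084822. Distances count from a match's first base on that strand. Capitals mark AGGTCA (a half-site of nuclear receptors, read as TGACCT on the other strand) and ATAAA near the start in Oxt, CACGTG (an E-box) and ATAAA in Avp, and TGACG (a half-site of cyclic AMP responsive elements) and ATAAA in Gal.
Oxt: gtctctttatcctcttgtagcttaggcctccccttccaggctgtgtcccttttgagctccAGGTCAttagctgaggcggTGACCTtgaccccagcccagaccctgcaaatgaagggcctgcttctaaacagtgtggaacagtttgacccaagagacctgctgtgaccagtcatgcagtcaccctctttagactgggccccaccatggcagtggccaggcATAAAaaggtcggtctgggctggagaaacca
Avp: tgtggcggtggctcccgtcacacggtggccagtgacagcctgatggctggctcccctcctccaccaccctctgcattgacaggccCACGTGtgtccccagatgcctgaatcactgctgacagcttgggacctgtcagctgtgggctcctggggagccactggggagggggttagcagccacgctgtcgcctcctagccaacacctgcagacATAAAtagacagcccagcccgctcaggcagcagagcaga
Gal: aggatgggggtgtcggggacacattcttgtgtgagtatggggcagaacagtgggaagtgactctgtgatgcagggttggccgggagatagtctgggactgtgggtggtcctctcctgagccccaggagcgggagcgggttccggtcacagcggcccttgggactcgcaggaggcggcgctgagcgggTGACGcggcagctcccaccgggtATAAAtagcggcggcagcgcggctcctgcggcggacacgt
AGGTCA matched at 2 places in the Oxt window, at 190 and 171 bases before the start, and nowhere in the other windows. CACGTG matched 165 bases before the start of Avp, and TGACG 63 bases before that of Gal and also, not in capitals, 235 bases before that of Avp. ATAAA on the gene's strand matched 31, 39 and 40 bases before the starts of Oxt, Avp and Gal. Of 33469 rat windows of this length, 14.1% hold AGGTCA, 5.59% CACGTG and 18.2% TGACG, and 6.1% hold ATAAA within the last 50 bases on the gene's strand. These matches describe letters and no binding.

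A difference is the log2 signal of the lateral hypothalamus minus the mean of the 5 other region means. Genes were called at an adjusted p under 0.05 (limma, Benjamini-Hochberg over all 1263 probe sets) and a change of at least 2-fold. This gave 46 probe sets higher in the lateral hypothalamus (3.64%), standing for 33 named genes, and 79 lower (6.25%), standing for 49. Without the fold limit 220 were higher (17.4%) and 178 lower (14.1%). The median difference of all probe sets was 0.03. Oxt, Avp, Gal and the synuclein Sncg had the largest higher differences of named genes. Itpka, Itpr1, Ptk2b and Grin1, which act in inositol phosphate and calcium signalling or as a glutamate receptor subunit, had the largest lower ones, those of Itpr1 and Grin1 in a dim probe set with smaller differences in the brightest. Each list of genes below is set beside all 720 named genes, of which 18.3% were higher and 13.5% lower, with a median of 0.04. The lists were chosen with earlier results of these data known, so their shares are no independent test.

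**Figure D1:**
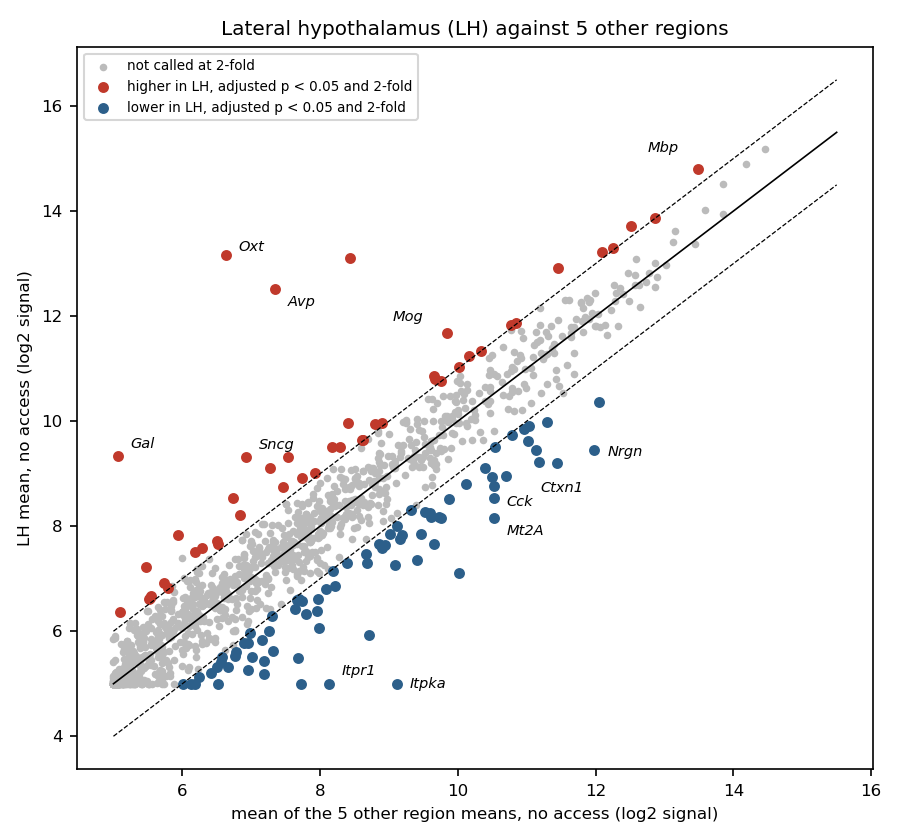
Each point is a probe set on the no access arrays, with the mean log2 signal of the 4 lateral hypothalamus arrays (vertical) against the mean of the 5 other region means (horizontal). The solid line marks equality and the dashed lines 2-fold. Oxt, Avp and Gal stand farthest above the line, at differences of 6.51, 5.17 and 4.27, and Itpka farthest below, at -4.12.

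Oxytocin (Oxt), the peptide of milk ejection, parturition and social behaviour, showed the largest difference. Its log2 signal was 13.25, 13.08, 13.22 and 13.07 on the lateral hypothalamus arrays, against 5.00 to 10.35 with a median of 6.52 on the 17 other arrays. No other array came within 2 log2 units of the lateral hypothalamus. The amygdala had the highest mean of the others, with arrays at 9.91, 8.59, 6.90 and 10.35 (8.94 ± 1.55, SD, n = 4), while the means of the remaining regions lay between 5.49 and 7. The difference was 6.51 ± 0.39 (SE), or 91.3-fold, at an adjusted p of 1.88e-10.

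Vasopressin (Avp), the antidiuretic hormone, had 12.59, 12.50, 12.50 and 12.46 in the lateral hypothalamus, against 5.98 to 10.37 elsewhere. Again the amygdala had the highest mean of the others, with arrays at 10.37, 9.28, 7.84 and 10.29. The difference was 5.17 ± 0.32, or 35.9-fold (adjusted p = 3.02e-10). A second probe set gave 4.69, and another was at the floor of 5 on all 21 arrays. The same amygdala array was lowest for both peptides.

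Galanin (Gal), a peptide of feeding and arousal circuits, was measured at 9.09, 9.59, 9.36 and 9.28 in the lateral hypothalamus. Elsewhere it was at the floor in all arrays of 4 regions and reached 6.29 on 1 amygdala array. It was therefore at least 19.2-fold higher (4.27 ± 0.17, adjusted p = 4.06e-13).

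Other peptides differed less. Prodynorphin (Pdyn), the precursor of the dynorphins, had 8.47, 9.06, 8.47 and 8.99, 2.45-fold above the mean of the others (1.29 ± 0.23, adjusted p = 0.000254). It was not highest here, since the nucleus accumbens held 10 ± 0.07 (SD, n = 4), and it was lowest in the ventral tegmental area at 5.59 ± 0.68 (SD, n = 3). Of 15 peptide genes measured, 7 were higher (Oxt, Avp, Gal, Pdyn, Sst, Pnoc and Vgf) and 3 lower (Cck, Npy and Penk), at 46.7% and 20% against 18.3% and 13.5% of all 720 named genes. The median of the list was 0.25, against 0.04 for all named genes.

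Cholecystokinin (Cck) was the peptide with the largest deficit. It had 8.50, 8.29, 8.65 and 8.73 in the lateral hypothalamus, while the medial prefrontal cortex had 12.71 ± 0.08 (SD, n = 3) and the ventral tegmental area 11.68 ± 0.15 (SD, n = 3). The nucleus accumbens, at 8.29 ± 0.21 (SD, n = 4), was as low, so the arrays of the groups overlapped. The difference was -1.98 ± 0.10 (adjusted p = 3.48e-11). Neuropeptide Y (Npy), a peptide of cortical interneurons and of feeding neurons of the arcuate nucleus, had a mean of 7.85, against 9.47 in the other regions (-1.62, adjusted p = 4.1e-07).

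**Figure D2:**
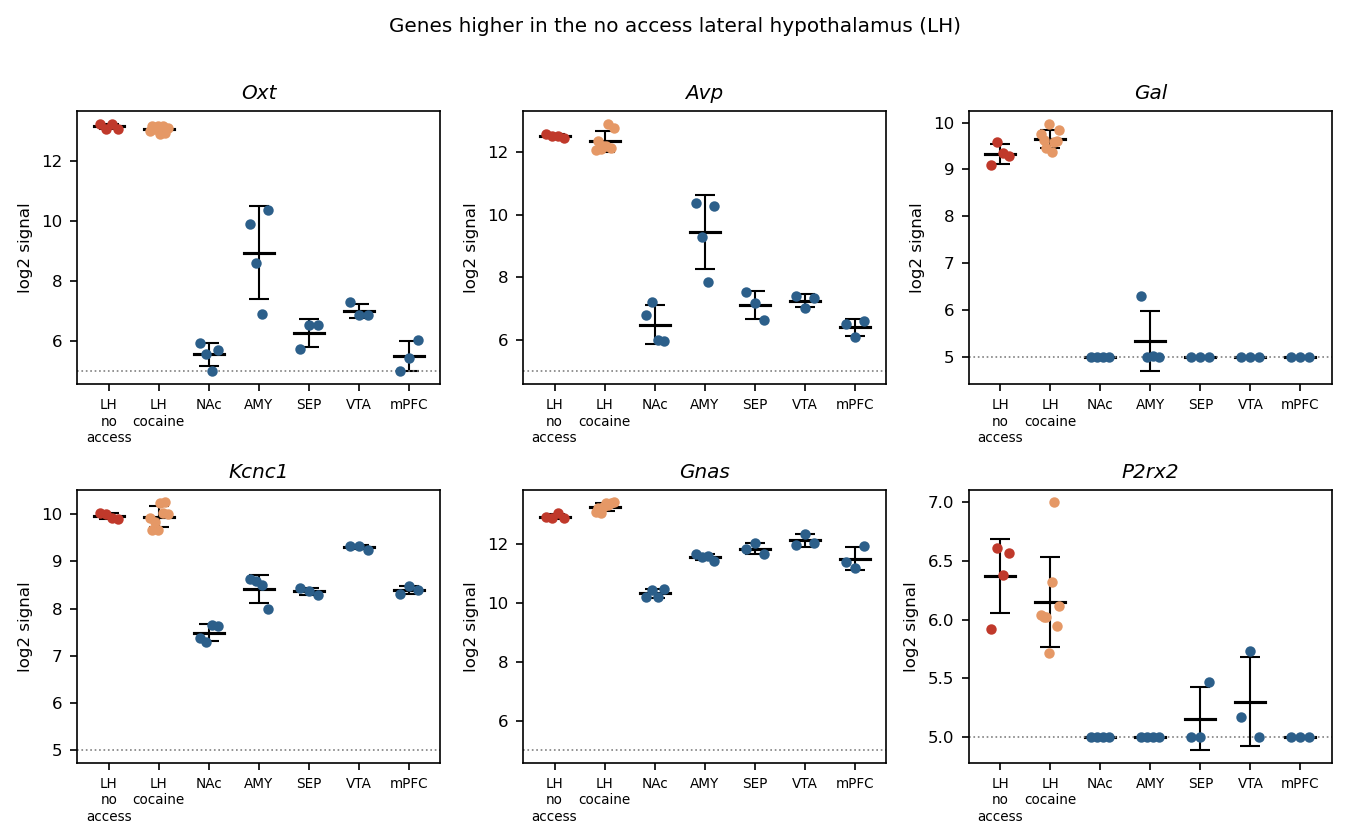
Log2 signal (vertical) of 6 genes on each array of the lateral hypothalamus (LH, no access and cocaine) and on the no access arrays of the other regions (NAc, nucleus accumbens; AMY, amygdala; SEP, septum; VTA, ventral tegmental area; mPFC, medial prefrontal cortex). Bars give the mean and SD, the dotted line the floor of 5. For all 6 genes the 4 red points lie above every blue point.

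Of 23 receptors of peptides and hormones, 6 were higher and 0 lower (26.1% and 0%, median 0.14), none of them at 2-fold. Orexin receptor 2 (Hcrtr2) was at 6.44, 6.95, 7.34 and 7.09, against 5.00 to 6.83 on the other arrays (0.88 ± 0.21, adjusted p = 0.00264). The nociceptin receptor Oprl1 was at 7.72, 7.78, 7.76 and 7.41, against 6.25 to 7.47 (0.66 ± 0.14, adjusted p = 0.000976). Both sets of arrays overlapped slightly. Tested 1 by 1, Hcrtr2 was not called against the septum, the ventral tegmental area or the medial prefrontal cortex (limma, adjusted p = 0.0775, 0.809 and 0.129). Oprl1 was not called against the amygdala or the ventral tegmental area (limma, adjusted p = 0.0858 and 0.0769). The VIP receptor Vipr1 differed by 0.91 but was at a similar level in the medial prefrontal cortex, at 6.46 ± 0.21 (SD, n = 3), and at the floor in the septum and the ventral tegmental area. Its call was lost with the deposited scaling, at 0.22, and on the cocaine arrays its difference was -0.11.

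Of 38 potassium channel genes 6 were higher and 8 lower (15.8% and 21.1%, median -0.02). Kcnc1, the Kv3.1 channel of fast-spiking neurons, had 10.03, 10, 9.93 and 9.89, against 7.29 to 9.33 on all other arrays. The difference was 1.57 ± 0.10 (adjusted p = 4.2e-10), and the groups did not overlap. Its relative Kcnc2 (Kv3.2) differed by 1.34 ± 0.14, with 9.48, 9.45, 9.71 and 9.41 in the lateral hypothalamus against 9.90 ± 0.28 in the ventral tegmental area (SD, n = 3), and its 3 dimmer probe sets gave -0.01 to 0.95. Kcnj16, an inward rectifier of glia, was at 8.52, 8.56, 8.51 and 8.58 (1.82 ± 0.20, adjusted p = 8.96e-07), level with 8.54 ± 0.24 in the ventral tegmental area. The lower ones included Kcnj4, an inward rectifier of forebrain neurons (-1.93 ± 0.21, adjusted p = 5.36e-07), and Kcnab1, a subunit of Kv1 channels. Kcnab1 had 7.14, 7.61, 7.02 and 7.41, below each of the 17 other arrays at 7.83 to 9.70 (-1.38 ± 0.15, adjusted p = 4.85e-07).

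Of 21 sodium and calcium channel genes 4 were higher and 3 lower (19% and 14.3%, median -0.03). The sodium channel Scn1a was higher (1.21 ± 0.18, adjusted p = 2.39e-05) and Scn2a lower (-0.59 ± 0.14, adjusted p = 0.00272). The 5 probe sets of P2rx2, an ATP-gated channel, differed in size. In 1 of them the lateral hypothalamus arrays had 5.92, 6.61, 6.38 and 6.57, while every other array was at 5.73 or less (1.28 ± 0.12, adjusted p = 1.66e-07). The brightest averaged 8.71 in the lateral hypothalamus and 8.36 over the others and was not called (0.35, adjusted p = 0.0669), and the other 3 gave 0.41 to 0.86.

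The G protein subunit Gnas, which couples receptors to adenylyl cyclase, had 12.90, 12.85, 13.03 and 12.86, against 10.18 to 12.34. This was above all other arrays (1.45 ± 0.11, adjusted p = 2.57e-09), but a brighter probe set of Gnas gave 0.47. Sncg, or gamma-synuclein, had 9.46, 9.39, 9.19 and 9.18 (2.38 ± 0.27, adjusted p = 9.18e-07), next to 10.23 ± 0.16 in the ventral tegmental area (SD, n = 3) and 5.10 ± 0.17 in the medial prefrontal cortex (SD, n = 3). The kainate receptor subunit Grik4 had 6.73, 7.48, 7.21 and 7.47, against 7.10 ± 0.33 in the ventral tegmental area and means of at most 5.25 in the other 4 regions. Its difference was 1.75 ± 0.15 (adjusted p = 4.01e-08) and that of a second probe set 1.18.

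Nearly the whole myelin list was higher. Of 7 oligodendrocyte genes 6 were higher and 0 lower (85.7% and 0%), with a median of 1.02. Myelin oligodendrocyte glycoprotein (Mog) was at 11.66, 11.73, 11.71 and 11.58, against 7.29 to 11.76 (1.83 ± 0.15, adjusted p = 1.58e-08). Myelin basic protein (Mbp) was at 14.79, 14.63, 15.03 and 14.76, against 11.75 to 14.95 (1.33 ± 0.10, adjusted p = 6.06e-09). In both the arrays of the ventral tegmental area lay as high, at 11.68 ± 0.08 and 14.79 ± 0.15 (SD, n = 3). The summed signal of Mbp, Cnp, Mag and Mog was 37500 to 44400 in the lateral hypothalamus, 36900 to 43300 in the ventral tegmental area and down to 5230 elsewhere. Transferrin (Tf), which oligodendrocytes also make, differed by 0.96 ± 0.08 (adjusted p = 1.43e-08). Myelin-associated glycoprotein (Mag) had 11.82, 11.83, 11.83 and 11.85, against 9.33 to 11.74, so its arrays did not overlap (1.07 ± 0.09, adjusted p = 1.27e-08). The ventral tegmental area was nearly as high in Mag, at 11.73 ± 0.01 (SD, n = 3), and that pair was not called (limma, adjusted p = 0.768). The 2 other probe sets of Mag gave 0.57 and 1.14. Enpp2, the lysophospholipase autotaxin of oligodendrocytes and choroid plexus, differed by 1.13 ± 0.12 but was highest in the septum, at 11.29 ± 0.14 (SD, n = 3). The part of myelin content in other genes' differences was not tested.

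Of 10 astrocyte genes 3 were higher (Apoe, S100b and Slc6a11), none at 2-fold in the brightest probe set, and 0 lower (median 0.26). Apolipoprotein E (Apoe) had 14.87, 14.82, 14.94 and 14.92, above all other arrays at 13.77 to 14.60 (0.70 ± 0.08, adjusted p = 1.53e-06). With quantile normalization this call was lost, at 0.07. S100b differed by 1.84 ± 0.47 in 1 probe set and by 0.44 in a brighter one. Of 12 microglial and immune genes 4 were higher (Il18, C3, B2m and Ccl2), and of these 1 also on the cocaine arrays (median 0.19). The cytokine Il18 had 7.64, 7.78, 7.67 and 7.79, above all other arrays at 5.00 to 7.48 (1.21 ± 0.22, adjusted p = 0.000256). The ventral tegmental area was close, at 7.44 ± 0.04 (SD, n = 3), and that pair was not called (limma, adjusted p = 0.757). On the cocaine arrays the difference of Il18 was 0.50. B2m, C3 and Ccl2 each lost the call when 1 lateral hypothalamus array was left out, with lowest values of 0.61, 0.83 and 0.35. Of 4 vessel genes 1 was higher and 0 lower (median 0.20). The glucose transporter of vessels, Slc2a1, was at 11.70, 11.97, 11.94 and 11.82, 2.02-fold above the mean of the others and level with 11.86 ± 0.06 in the ventral tegmental area (SD, n = 3).

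Itpka, an inositol trisphosphate kinase of dendritic spines, gave the largest deficit. It was at the floor on all 4 arrays of the lateral hypothalamus and on the 3 of the ventral tegmental area, against 10.27 ± 0.25, 10.24 ± 0.17, 9.48 ± 0.05 and 10.59 ± 0.15 in the nucleus accumbens, amygdala, septum and medial prefrontal cortex (SD, n = 4, 4, 3 and 3). It was 17.3-fold lower than the mean of the 5 regions (-4.12 ± 0.10, adjusted p = 9.37e-17), with floor values on both sides. Itpr1, the receptor that releases calcium on inositol trisphosphate, was lower in all 5 of its probe sets. The brightest averaged 8.52 in the lateral hypothalamus and 9.87 over the others, 2.55-fold lower (-1.35 ± 0.14, adjusted p = 4.1e-07). The largest difference of Itpr1 was in a probe set at the floor in the lateral hypothalamus (-3.13 ± 0.25, adjusted p = 8.61e-09), and the other 3 gave -1.11 to -2.19.

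Neurogranin (Nrgn), which binds calmodulin in spines, had 9.34, 9.52, 9.52 and 9.47, below every other array at 10.67 to 13.60. The highest means were 13.37 ± 0.20 in the medial prefrontal cortex (SD, n = 3) and 12.95 ± 0.14 in the amygdala (SD, n = 4). The difference was -2.51 ± 0.07 (adjusted p = 4.26e-16), and Nrgn was below each of the 5 regions. Protein kinase C beta (Prkcb) had 7.30, 7.52, 7.59 and 6.98, against 7.64 to 10.40, so its arrays did not overlap either (-2.07 ± 0.12, adjusted p = 9.73e-11), and a brighter pair of Prkcb probe sets gave -1.31 and -0.79. The nearest region was the ventral tegmental area, at 7.77 ± 0.12 (SD, n = 3, adjusted p = 0.11 for that pair). The tyrosine kinase Ptk2b had 7.35, 6.35, 7.78 and 6.97 (-2.90 ± 0.19, adjusted p = 4.6e-10), near 6.82 ± 0.08 in the ventral tegmental area and over 10 in every other region mean.

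Of 12 markers of cortical and amygdalar excitatory neurons 11 were lower and 0 higher (91.7% and 0%), with a median of -1.31. They include Camk2a, a kinase of long-term potentiation (-1.50, adjusted p = 2.79e-05), and Stx1a, syntaxin of the release machinery (-1.26 ± 0.09, adjusted p = 1.82e-09). Of 26 genes of calcium, cyclic AMP and kinase signalling 5 were higher and 8 lower (19.2% and 30.8%, median -0.18). Camk2b differed by -1.77 ± 0.12 in 1 probe set and by -0.53 in a brighter one.

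Of 23 glutamate receptor genes 3 were higher (Grik4, Grin2d and Grm6) and 7 lower (13% and 30.4%, median -0.16), among them 3 AMPA receptor subunits, Gria1, Gria2 and Gria3. Gria2 had 8.33, 8.65, 8.97 and 9.22, against 8.49 to 10.11 (-0.84 ± 0.11, adjusted p = 9.7e-06). The NMDA subunit Grin1 was at the floor in the lateral hypothalamus in 1 probe set (-2.73 ± 0.32, adjusted p = 1.42e-06), but the brightest probe set of Grin1 gave -0.38 (adjusted p = 0.363). Of 11 genes of glutamate transport and the postsynaptic scaffold 1 was higher and 3 lower (9.09% and 27.3%, median -0.15). The scaffolds Dlg3 and Dlgap4 differed by -1.01 ± 0.18 and -1.02 ± 0.13. The probe sets of Nptxr, a receptor of neuronal pentraxins, disagreed, with -1.28 and -1.34 in a pair of them and 1.11 in a dimmer one.

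Of 21 genes of synaptic vesicles and release 4 were higher and 6 lower (19% and 28.6%, median -0.23). Synapsin 1 (Syn1), a vesicle phosphoprotein, had 9.76, 9.78, 9.64 and 10.24, against 9.65 to 12.31 (-1.11 ± 0.21, adjusted p = 0.000345), and its difference on the cocaine arrays was -0.20. Snap25 differed by -0.92 ± 0.16 in 1 probe set and by -0.50 and -0.30 in a brighter pair. Of 9 cytoskeleton genes 2 were higher and 2 lower (22.2% and 22.2%, median 0.04). The neurofilament Nefm had 11.27, 11.41, 11.48 and 11.53, between 12.81 ± 0.01 in the ventral tegmental area (SD, n = 3) and 9.77 ± 0.19 in the nucleus accumbens (SD, n = 4).

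Of 23 GABA genes 4 were higher (Gad1, Abat, Slc6a11 and Glra2) and 3 lower (Gabrd, Gabra4 and Slc6a13), with a median of 0.01. The delta subunit Gabrd, of extrasynaptic receptors, had 6.95, 6.40, 7.05 and 6.79, against 9.08 ± 0.07 in the nucleus accumbens (SD, n = 4) and 6.30 ± 0.40 in the ventral tegmental area (SD, n = 3). Its difference was -1.28 ± 0.13 (adjusted p = 4.51e-07). The GABA transporter Slc6a11 was at 9.63, 10.15, 9.27 and 10.06 (0.94 ± 0.17, adjusted p = 0.000251), near 9.74 ± 0.22 in the septum (SD, n = 3).

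Of 33 monoamine genes 5 were higher and 4 lower (15.2% and 12.1%, median 0), near the shares of all named genes. Ddc, which makes dopamine and serotonin from their precursors, had 9.59, 9.21, 9.19 and 9.25, 3.41-fold above the mean of the others (1.77 ± 0.38, adjusted p = 0.00128), though the ventral tegmental area held 12.03 ± 0.10 (SD, n = 3). A second probe set of Ddc gave 0.77, or 1.71-fold. Monoamine oxidase A (Maoa) had 10.67, 10.78, 10.87 and 10.73 (1.01 ± 0.10, adjusted p = 2e-07), level with 10.75 ± 0.08 in the ventral tegmental area (SD, n = 3). Tyrosine hydroxylase (Th) gave 1.09 (adjusted p = 0.00492), with means of 9.02 in the lateral hypothalamus and 7.93 over the others. The dopamine transporter Slc6a3 and the vesicular transporter Slc18a2 were lower in 1 probe set each (-1.17 and -1.08), and a second probe set of each gave -0.18 and -0.50 (adjusted p = 0.723 and 0.0523, limma). Both signs of the first rested on the ventral tegmental area, without which the differences were 0.14 and 0.02. Of 7 dopamine neuron markers 2 were higher and 3 lower (28.6% and 42.9%, median -0.41).

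The receptors Drd1 and Drd2, which mark the projection neurons of the striatum, were both lower. Drd1 had 5.98, 6.37, 6.24 and 6.96, against 10.83 ± 0.13 in the nucleus accumbens (SD, n = 4) and 5.83 ± 0.14 in the ventral tegmental area (SD, n = 3). Its difference was -1.57 ± 0.18 (adjusted p = 1.17e-06), and that of Drd2 was -1.70 ± 0.33 (adjusted p = 0.000545). Drd2 was at 5.03, 5.72, 6.73 and 5.00, below the ventral tegmental area at 8.16 ± 0.34 (SD, n = 3). Without the nucleus accumbens the difference of Drd2 was -1.05 and not called. Of 8 nucleus accumbens markers 1 was higher (Pdyn) and 4 lower (12.5% and 50%, median -0.24).

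Of 19 acetylcholine genes 1 was higher (Chrm3) and 4 lower (5.26% and 21.1%, median 0). The muscarinic receptor Chrm1 had 5.4, 5.22, 5.66 and 5.00, against 7.79 ± 0.31 in the nucleus accumbens (SD, n = 4) and 5.13 ± 0.16 in the ventral tegmental area (SD, n = 3). Its difference was -1.34 ± 0.37 (adjusted p = 0.00951), and -1.06 and not called without the nucleus accumbens. A second Chrm1 probe set averaged 5.82 in the lateral hypothalamus and 6.28 over the others and was not called (-0.46, adjusted p = 0.317). The probe sets of Chrm4, another muscarinic receptor, disagreed. One was at the floor on all 4 arrays and at 7.39 ± 0.21 in the nucleus accumbens (SD, n = 4), while the brighter one averaged 7.46 in the lateral hypothalamus and 7.38 over the others (0.07, adjusted p = 0.849).

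Of 12 activity-induced genes 2 were higher (Crem and Nptx2) and 4 lower (Egr1, Nr4a1, Nr4a3 and Junb), with a median of 0.01. The transcription factor Egr1 had 7.35, 7.30, 6.90 and 7.50, against 10.39 ± 0.28 in the medial prefrontal cortex and 6.55 ± 0.14 in the ventral tegmental area (SD, n = 3 each). Its difference was -1.83 ± 0.11 (adjusted p = 1.38e-10), and its 3 other probe sets gave -0.60 to -1.36. The nuclear receptor Nr4a1 had 7.41, 7.46, 7.61 and 8.12 (-1.28 ± 0.14, adjusted p = 7.93e-07). Fos differed by 0.02 (adjusted p = 0.941). Crem, a modulator of cyclic AMP responses, had 8.30, 8.26, 8.21 and 8.07 (1.37 ± 0.31, adjusted p = 0.002), with 0.43 on the cocaine arrays, which was not called.

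Among secreted and metal-binding proteins, metallothionein (Mt2A) had 8.03, 8.13, 8.24 and 8.20, below all other arrays at 8.82 to 11.71 (-2.38 ± 0.25, adjusted p = 4.1e-07). The extracellular superoxide dismutase Sod3 had 7.30, 7.50, 7.62 and 7.50, also below all others at 7.82 to 9.93 (-1.18 ± 0.15, adjusted p = 3.27e-06). Insulin-like growth factor 2 (Igf2), of choroid plexus and meninges, and its binding protein Igfbp2 differed by -1.69 ± 0.24 and -1.56 ± 0.35. Igf2 has 5 other probe sets, of which the brightest gave -1.06 and 2 gave 0.05 and 0.10. Of 3 genes of choroid plexus and ependyma 1 was higher and 2 lower (median -1.06). Of 4 genes listed as septum markers 1 was higher and 0 lower (median 0.19). The higher one was Gal, which was at the floor on all septum arrays without access and so did not mark the septum here.

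Of 31 growth and neurotrophic factor genes 5 were higher and 5 lower (16.1% and 16.1%, median -0.05). Ciliary neurotrophic factor (Cntf), which astrocytes make, had 7.78, 7.61, 7.62 and 7.63, near 7.86 ± 0.15 in the ventral tegmental area (SD, n = 3). Its difference was 1.15 ± 0.20 (adjusted p = 0.000134). Neurotrophin 3 (Ntf3) had 6.34, 6.11, 7.07 and 6.76, against 6.60 to 8.70 on the other arrays (-1.17 ± 0.19, adjusted p = 8.71e-05). It was lowest of the 6 regions here, but not below each one in the single tests, since the nucleus accumbens was at 6.95 ± 0.24 (SD, n = 4, adjusted p = 0.242).

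**Figure D3:**
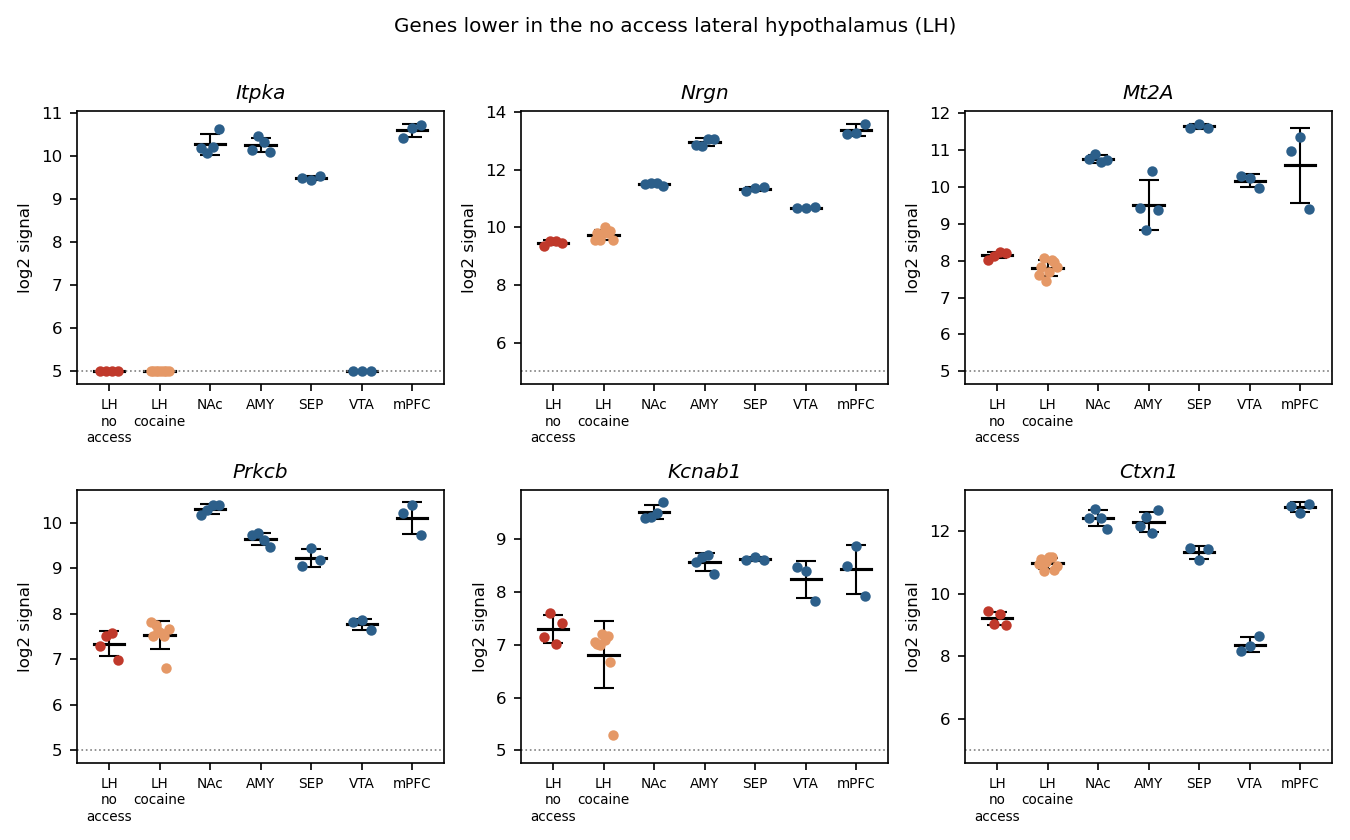
Log2 signal (vertical) of 6 genes on each array of the lateral hypothalamus (LH, no access and cocaine) and on the no access arrays of the other regions, named as in the plot of higher genes. Bars give the mean and SD, the dotted line the floor of 5. Nrgn, Mt2A, Prkcb and Kcnab1 have all 4 red points below every blue point, Itpka is at the floor in the lateral hypothalamus and in the ventral tegmental area, and Ctxn1 lies lower without cocaine than with it.

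Each region was also compared with the lateral hypothalamus alone. At 2-fold the lateral hypothalamus had 115 higher and 133 lower probe sets against the nucleus accumbens (9.11% and 10.5%), 119 and 120 against the medial prefrontal cortex (9.42% and 9.5%), 81 and 106 against the amygdala (6.41% and 8.39%) and 77 and 86 against the septum (6.1% and 6.81%). Against the ventral tegmental area it had 26 and 37 (2.06% and 2.93%), the smallest numbers of the 5. On the cocaine arrays the same comparisons gave 64 higher and 118 lower against the nucleus accumbens (5.07% and 9.34%), 109 and 104 against the medial prefrontal cortex (8.63% and 8.23%) and 55 and 93 against the amygdala (4.35% and 7.36%). There the septum, with 30 and 56 (2.38% and 4.43%), and the ventral tegmental area, with 54 and 47 (4.28% and 3.72%), were the nearest by these counts. The ventral tegmental area was the nearest region in level for 28 of the 46 higher and 55 of the 79 lower probe sets.

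The lateral hypothalamus had the highest of the 6 means for 27 of the 46 higher probe sets, and the lowest for 32 of the 79 lower ones. It was above each of the 5 regions, tested 1 by 1, for 14 probe sets (1.11%). These stand for Oxt, Avp, Gal, Kcnc1, Gnas, P2rx2, Gnb1, Ctse, Pld2 and Slc1a6, besides 2 without a gene name. On the cocaine arrays 10 of the 14 held against the mean of 5 regions, and 8 were above each region there too. Pld2 and Ctse were among those that did not hold, at 0.19 and -0.14. Gnb1, a G protein beta subunit, had 11.56, 11.30, 11.36 and 11.14, against 9.76 to 11.05, and its 4 other probe sets gave 0.81 to 1.08. The lateral hypothalamus was below each region for 7 probe sets (0.554%), of Nrgn, Mt2A, Kcnab1, Sod3 and Il2rb and 2 without a gene name. On the cocaine arrays 5 of these 7 held, and 3 were below each region there too. Slc1a6, a glutamate transporter, was at the floor on 1 of the 4 arrays and at 6.36, 5.54 and 6.72 on the others. A second probe set of Slc1a6 was at the floor in every region.

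**Figure D4:**
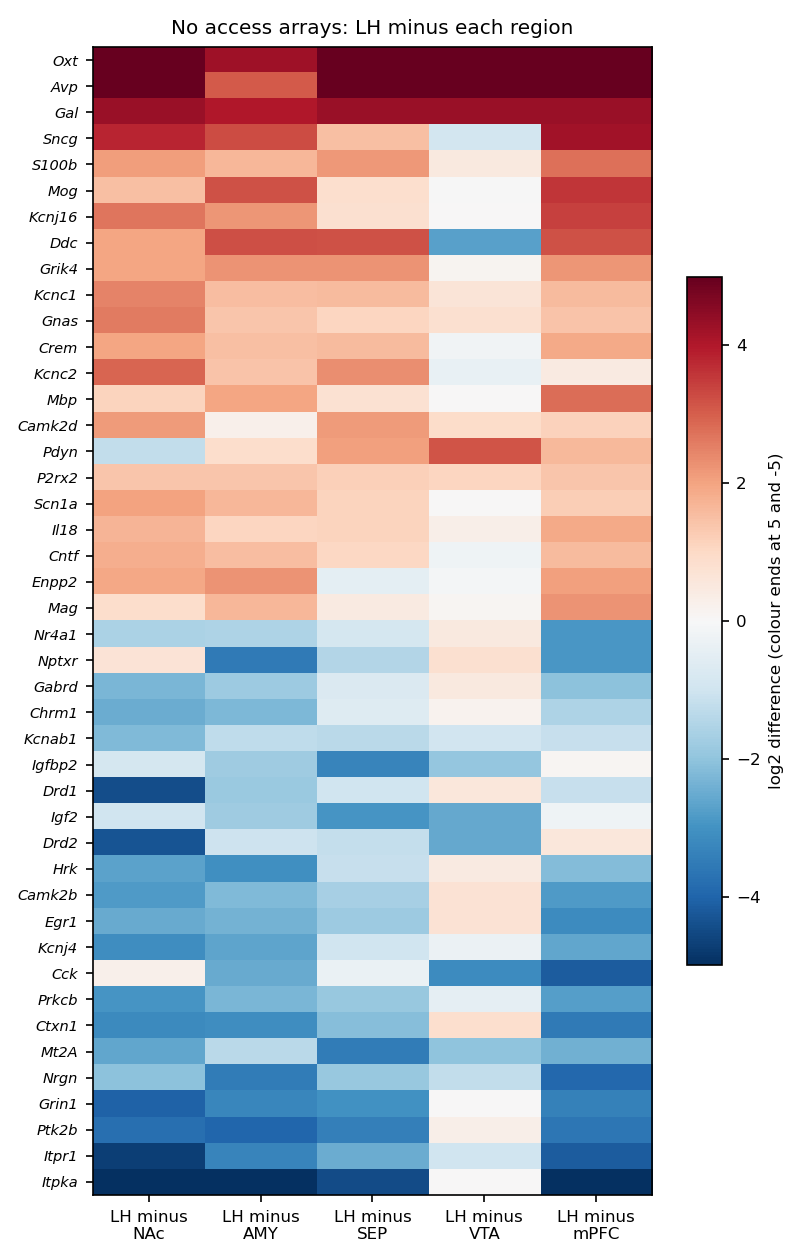
Colour gives the log2 difference of the no access lateral hypothalamus (LH) from each of 5 regions (columns) for the 22 named genes with the largest higher and the 22 with the largest lower differences (rows). Oxt, Avp and Gal are red in all columns, Nrgn, Mt2A and Kcnab1 blue in all columns, and the column of the ventral tegmental area (VTA) is the palest, with Mog, Mbp and Itpka near 0.

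The pattern most like that of Oxt over the 6 region means, among 878 probe sets, was that of Avp (Pearson r of 0.996), followed by Bax (0.986), Ncam1 (0.964) and Adora3 (0.955). With 6 points of which the lateral hypothalamus is far the highest, these values describe mainly that 1 point and the amygdala. Bax, a promoter of cell death, differed by only 0.17 ± 0.07 (adjusted p = 0.069), and Ncam1, an adhesion molecule, by 0.53 ± 0.13 (adjusted p = 0.00295) and in a brighter probe set by 0.22 (adjusted p = 0.203).

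The same comparison was made on the 42 cocaine arrays, which share no array with the no access ones. There 31 probe sets were higher (2.45%) and 61 lower (4.83%) at 2-fold. Of the 46 higher probe sets without cocaine 37 held, with the same sign and an adjusted p under 0.05, and 21 of these stayed at 2-fold. Of the 79 lower ones 69 held and 50 stayed at 2-fold. The 9 higher probe sets that did not hold were of Gnb1 (3 probe sets), Camk2d, Crem, Mapk12 and the dim one of Nptxr, besides 2 without a gene name. The 10 lower ones were of Cacna1a (2 probe sets), Grin2a, Pdgfb, Syn1, Thra, Il2rb, Nlgn3 and Sod3, besides 1 without a gene name. For scale, 220 (17.4%) and 209 (16.5%) of all probe sets were called higher and lower on the cocaine arrays without a fold limit. The median of the higher calls was 1.21 without and 0.81 with cocaine, and that of the lower calls -1.34 and -1.23. The calls were chosen on the no access arrays, which by itself favours larger sizes there.

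The marker peptides held at nearly the same size. Oxt lay at 12.90 to 13.18 on the 8 cocaine arrays of the lateral hypothalamus and differed from the other regions by 6.51 without and 6.63 with cocaine. Avp differed by 5.17 and 5.06, Gal by 4.27 and 4.39, and Pdyn by 1.29 and 1.31. Itpka was at the floor on all 12 arrays of the region, with -4.12 and -4.02. Egr1 differed by -1.83 and -1.65, Drd1 by -1.57 and -1.59, and Mt2A by -2.38 and -2.44. For none of these 8 probe sets was the change with cocaine called (adjusted p of 0.587 to 1). The brightest probe set of Egr1, however, differed by -1.30 without and -1.92 with cocaine, a change that was called (adjusted p = 0.00746).

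The region difference itself changed with cocaine for 123 probe sets (9.74%), 66 larger on the signed scale without cocaine (5.23%) and 57 smaller (4.51%). This count was 75 to 103 with 1 of the 4 no access lateral hypothalamus arrays left out (75 without replicate 4), 211 with array weights and 69 without cross-hybridising probe sets. Among the calls at 2-fold these were 15 higher and 15 lower ones. All of the higher ones and 13 of the lower ones were larger in size without cocaine. These calls were chosen on the no access arrays, which also enter the change, and this choice by itself favours larger sizes without cocaine. The direct comparison of the lateral hypothalamus arrays, no access against cocaine, called 76 higher (6.02%) and 69 lower (5.46%). That of the mean of the other 5 regions called 3 and 2 (0.238% and 0.158%). In that mean a change in a single region is diluted and opposite changes cancel. Its counts are therefore not comparable with those of the lateral hypothalamus and do not show how far each other region changed. The control probe sets given above moved with this split of the lateral hypothalamus arrays, and their part was not tested.

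Ctxn1, or cortexin, a neuronal membrane protein, changed most among the named lower genes. It had 9.45, 9.04, 9.36 and 9.01 without cocaine and 10.74 to 11.18 on the 8 cocaine arrays, so the sets did not overlap. Its difference from the other regions was -2.23 without and -0.40 with cocaine (change of -1.83 ± 0.19, adjusted p = 6.63e-10). Cck changed the other way, at 8.29 to 8.73 without and 5.55 to 8.22 with cocaine, and its difference was -1.98 and -3.17 (adjusted p = 0.00695).

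Camk2d, a calcium-dependent kinase, had 7.26, 7.80, 7.59 and 7.72 without cocaine and 5.88 to 6.72 with it. The difference was 1.31 on the no access and -0.17 on the cocaine arrays (adjusted p = 7.94e-05), and its 4 other probe sets gave -0.18 to 0.73 without cocaine. Gnb1 had 11.14 to 11.56 without and 10.10 to 10.52 with cocaine, with differences of 1.01 and -0.06 (adjusted p = 0.000287), and the change was called in 4 of its 5 probe sets. The microtubule protein Map1a was at 11.14, 10.71, 10.98 and 10.75 without and at 11.52 to 12.16 with cocaine, with differences of -0.79 and 0.24 (adjusted p = 4.35e-05). The protease Ctse was at 5.42, 5.89, 6.59 and 5.58 without cocaine and at the floor on all 8 cocaine arrays, with differences of 0.85 and -0.14 (adjusted p = 6.76e-05), and its no access call was lost with the deposited scaling, at 0.12. In all 4 genes the arrays with and without cocaine did not overlap. Genes with a called change were picked for this paragraph, so this is no separate support. The share of such genes among all probe sets was not counted.

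**Figure D5:**
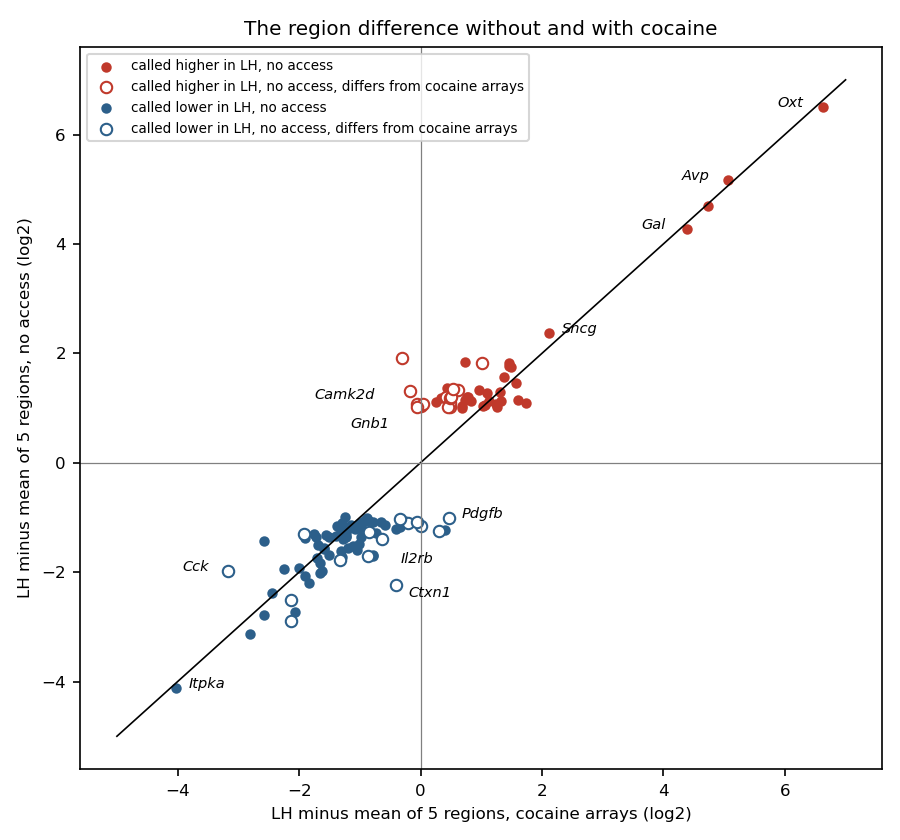
Log2 difference of the lateral hypothalamus (LH) from the mean of 5 regions on the no access arrays (vertical) against that on the cocaine arrays (horizontal), for the 46 higher and 79 lower probe sets. The line marks equality, and open points mark a change with cocaine called at an adjusted p under 0.05. Oxt, Avp, Gal and Itpka lie on the line, Camk2d and Gnb1 left of 0, and Ctxn1 at -2.23 against -0.40.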

How the data were processed

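The series holds 63 Affymetrix Rat Neurobiology U34 arrays with 1322 probe sets. The authors deposited 1 signal intensity per probe set, not log-transformed. The submitters' processing notes name MAS5. Its version and target, and any detection calls, are not given in the sources used here. The trimmed means of the deposited arrays lay between 250.8 and 251.3. Precision is limited by how many arrays a region has.

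The 59 control probe sets were left out. The remaining 1263 were brought to a common 2% trimmed mean of 500 on every array, values under 32 were set to 32 (log2 of 5, called the floor), and log2 was taken. The floor understates fold changes of dim genes where only the lower side is at it. Limma 3.58.1 in R 4.3.3 fitted the region groups of the 21 no access arrays (lmFit, then eBayes with its trend option), and p-values were adjusted by Benjamini and Hochberg's method across all 1263. The 71 probe sets at the floor on all 21 arrays kept a p of 1. The 42 cocaine arrays were fitted alike, with short and long access averaged, and all 63 gave the change with cocaine. The fits were tested on simulated data.

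Of the probe sets 1137 had 1 gene symbol in the platform annotation, 8 several and 118 none, and 1132 were found in RefSeq. Lists take the probe set with the highest mean. Named genes were the 14 largest rises and falls at 2-fold, up to 4 called members of each list, the 6 genes with the smallest p for the change with cocaine, those beyond each region, the markers, and the 4 most like Oxt. A gene was named once, by the probe set with the smallest p, except S100b, which was named by the one with the larger difference. The members and lists were chosen with earlier results of these data known.

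No 2 no access arrays had identical values. Alternatives were the deposited scaling, quantile normalization, no floor, minimum signals of 100 and 200, eBayes without its trend, weights per array, leaving out cross-hybridising probe sets, a replicate block, all arrays in 1 fit, a 3-fold limit, each region and each array left out, and the 8 cocaine arrays of the lateral hypothalamus in place of its no access arrays.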

Additional observations from a re-analysis of the deposited data

Results flagged for a closer look

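On 9 of 94 named genes 1 of the 4 lateral hypothalamus arrays without access lay far from the other 3, with a gap over the range above Dixon's critical value. Chance flags about 1 in 20 groups. The far log2 values were 8.84 for S100b, 9.59 for Ddc, 7.78 for Cntf, 10.59 for Nefh, 7.41 for Oprl1, 9.66 for Ncam1, 11.81 for Glul, 5.99 for Chrna6 and 8.51 for Stx1a. For Chrna6 the other 3 arrays were at the floor.

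For 27 of the 94 named genes the region difference without cocaine differed from that on the cocaine arrays (limma, adjusted p under 0.05). The no access minus cocaine value was above 0 for Camk2d (1.48), Cck (1.19), Gnb1 (1.07), Vipr1 (1.01), Ctse (0.99), Kcnj16 (0.8), Kcnc2 (0.8), Scn1a (0.79), Il18 (0.71), Glra2 (0.64), Pld2 (0.6), Slc2a1 (0.56), Maoa (0.54), Apoe (0.45), Glul (0.42) and Bax (0.26). It was below 0 for Ctxn1 (-1.83), Pdgfb (-1.48), Il2rb (-1.16), Map1a (-1.03), Syn1 (-0.9), Ptk2b (-0.77), Dlgap4 (-0.69), Grik5 (-0.51), Camk2b (-0.43), Stx1a (-0.4) and Nrgn (-0.38). The control probe sets of the lateral hypothalamus differ between the same arrays, and their part was not tested.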

How the results depend on the processing

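Leaving out 1 array at a time gave 41 to 54 higher and 72 to 82 lower calls at 2-fold, 10 to 15 above and 6 to 9 below each region. It gave 36 to 41 and 65 to 70 calls that hold on the cocaine arrays, and 75 to 103 changes with cocaine. The 75 came without the no access lateral hypothalamus array of replicate 4. Without the floor 72 were higher. Array weights gave 22 above each region and 211 changes with cocaine. Without cross-hybridising probe sets, which removed 565, there were 23 higher, 38 lower, 6 above and 4 below each region, 19 and 32 that hold, and 69 changes. At 3-fold there were 11 higher and 25 lower, of which 10 and 25 hold. Without the ventral tegmental area 79 were higher, 67 above and 64 below each of the 4 remaining regions, and 63 higher calls held. With the 8 cocaine arrays of the lateral hypothalamus against the no access arrays of the other regions, chosen after seeing the data, 25 were above and 15 below each region, and 31 higher and 72 lower calls shared 21 and 59 with the no access calls. Without the floor Chrna6 turned to 0.06. Without the ventral tegmental area Chrna6 turned to 0.23, Slc18a2 to 0.02 and Slc6a3 to 0.14. The cause of these shifts was not tested beyond the fewer probe sets, regions or arrays that a setting holds.

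Of 1974 named-gene values with 1 array left out 1941 kept direction and call, 31 lost the call, 2 gained it and 0 turned, and of 1347 under the other settings 1310 did, 29 lost it, 4 gained it and 4 turned. The deviations of 48 same-numbered pairs of arrays from different regions correlated at -0.16 to 0.47 (median 0.03), with 9 pairs over 0.1. Those of 135 different-numbered pairs correlated at -0.42 to 0.3 (median -0.01), with 11 pairs over 0.1. Of 21 arrays 9 correlated best with their own number. Whether replicate numbers pair the arrays was not tested. The replicate block gave 46 higher, 78 lower, 12 above and 7 below each region, 36 and 68 that hold, and 137 changes with cocaine. Signals near the floor limit how well the folds of dim genes are known.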

Other observations

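Some genes outside the named ones set the lateral hypothalamus apart on the cocaine arrays more than without access. They were chosen after their values were seen. Kcnk3, an acid-sensitive background potassium channel, differed by -0.14 without cocaine, where the lateral hypothalamus was at the floor, and by 2.21 with cocaine (change of -2.36 ± 0.21, adjusted p = 9.55e-12, limma). A second probe set of Kcnk3 was at the floor in both. The adrenergic receptor Adra2a differed by -0.37 without and 1.49 with cocaine (-1.87 ± 0.28, adjusted p = 6.95e-06).

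The NMDA receptor subunit Grin2d differed by 0.54 without and 1.55 with cocaine (-1.01 ± 0.13, adjusted p = 1.77e-07), and in a second probe set by -0.03 and 0.67. Sox10, a transcription factor of oligodendrocytes, differed by 0.22 and 1.40 (adjusted p = 0.00108), Slc32a1, the vesicular GABA transporter, by 0.02 and 0.69 (adjusted p = 1.52e-06), and the secreted peptide precursor Vgf by 0.25 and 0.95 (adjusted p = 5.2e-05). The calmodulin-binding peptide Pcp4 was higher without cocaine, at 0.34, and lower with it, at -0.58 (adjusted p = 0.000287).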
